A study of Homo sapiens with 2 samples.

Results

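The 49 genes described here encode the ligands, antagonists, receptors, intracellular transducers and common targets of the TGF-beta and BMP pathways. They were taken by gene symbol from a table of 21381 genes, and all 49 were found in it, with the expression level of each in 2 lines of prostate cancer (PCa) cells, called MDA PCa 2b and RC77 T/E. The study used both lines to examine how PCa cells and platelets act on each other, and the RNA was sequenced from cells that had received no treatment and no platelets. Each line was represented by 1 library, so every difference is between those libraries, has no replicate check and carries no p-value. MDA PCa 2b cells were grown in a modified Ham's F-12 medium with fetal bovine serum. It also held cholera toxin, mouse epidermal growth factor, phosphoethanolamine, hydrocortisone, sodium selenite and insulin. RC77 T/E cells were grown in a keratinocyte medium, Keratinocyte-SFM, with bovine pituitary extract and epidermal growth factor added and no serum listed. The line and its medium, serum included, therefore cannot be told apart.

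TGF-beta, activins and BMPs are secreted dimers that bring together a type II and a type I receptor kinase at the cell surface. The type I receptor then phosphorylates receptor-regulated SMAD proteins, SMAD2 and SMAD3 in the TGF-beta and activin branch and SMAD1, SMAD5 and SMAD9 in the BMP branch, which bind SMAD4 and enter the nucleus. TGF-beta is stored in the matrix in a latent form, and platelets are among its richest sources in blood. In normal prostate epithelium the pathway is known for restraining growth, and in carcinoma for its link to invasion.

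Values are TPM, the usual RNA-seq level scaled by transcript length and library size, and a gene was counted as expressed at 1 TPM or more. Many values of the deposited table had lost their decimal mark. The mark was fixed by the table itself for 32 members and by the position in a supplementary table of the study for 6, and for the other 11 both readings are given, as in 1.31 or 13.1 TPM. The plain ratio between the lines is the same under either reading, and sums and log2 ratios with a pseudocount use the lower one. Of the 49 members, 24 were expressed in both lines, 13 in neither, 29 in MDA PCa 2b with or without the other line, and 31 likewise in RC77 T/E. For comparison, the whole table held 10607 such genes for MDA PCa 2b, against 11286 for RC77 T/E.

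The marker genes of the lines differed widely, and this difference stands beside every result below. All 8 prostate luminal markers were expressed in MDA PCa 2b, but 3 of 8 in RC77 T/E, with a summed level of 6442 to 7655 TPM against 358.0 to 644.6 TPM across the readings of the marks. KLK3, the gene of prostate-specific antigen, was at 5323 TPM in MDA PCa 2b but listed at 0 in RC77 T/E. KLK2 and HOXB13 were also listed at 0 in RC77 T/E, so defining luminal markers were absent from the library labelled as that prostate cancer line. The 7 basal markers were all expressed in RC77 T/E and 3 of them in MDA PCa 2b, with sums of 11331 to 11378 against 44.6 TPM, and TP63 was listed at 0 in MDA PCa 2b. Of 10 fibroblast or smooth muscle markers, MDA PCa 2b expressed 1 and RC77 T/E 2, with sums of 4.15 and 12.2 TPM, and LUM and COL3A1 were listed at 0 in RC77 T/E. Of 5 endothelial markers, none reached 1 TPM in either line, with sums of 0.221 and 0.0833 TPM. Of 6 blood cell markers, only CD68 in RC77 T/E was expressed, at 37.9 TPM, while PTPRC, the defining surface protein of leukocytes, was listed at 0 there. The part of these differences in the results was not tested. In such bulk libraries fewer cells of a type and less RNA per cell cannot be told apart.

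**Figure D1:**
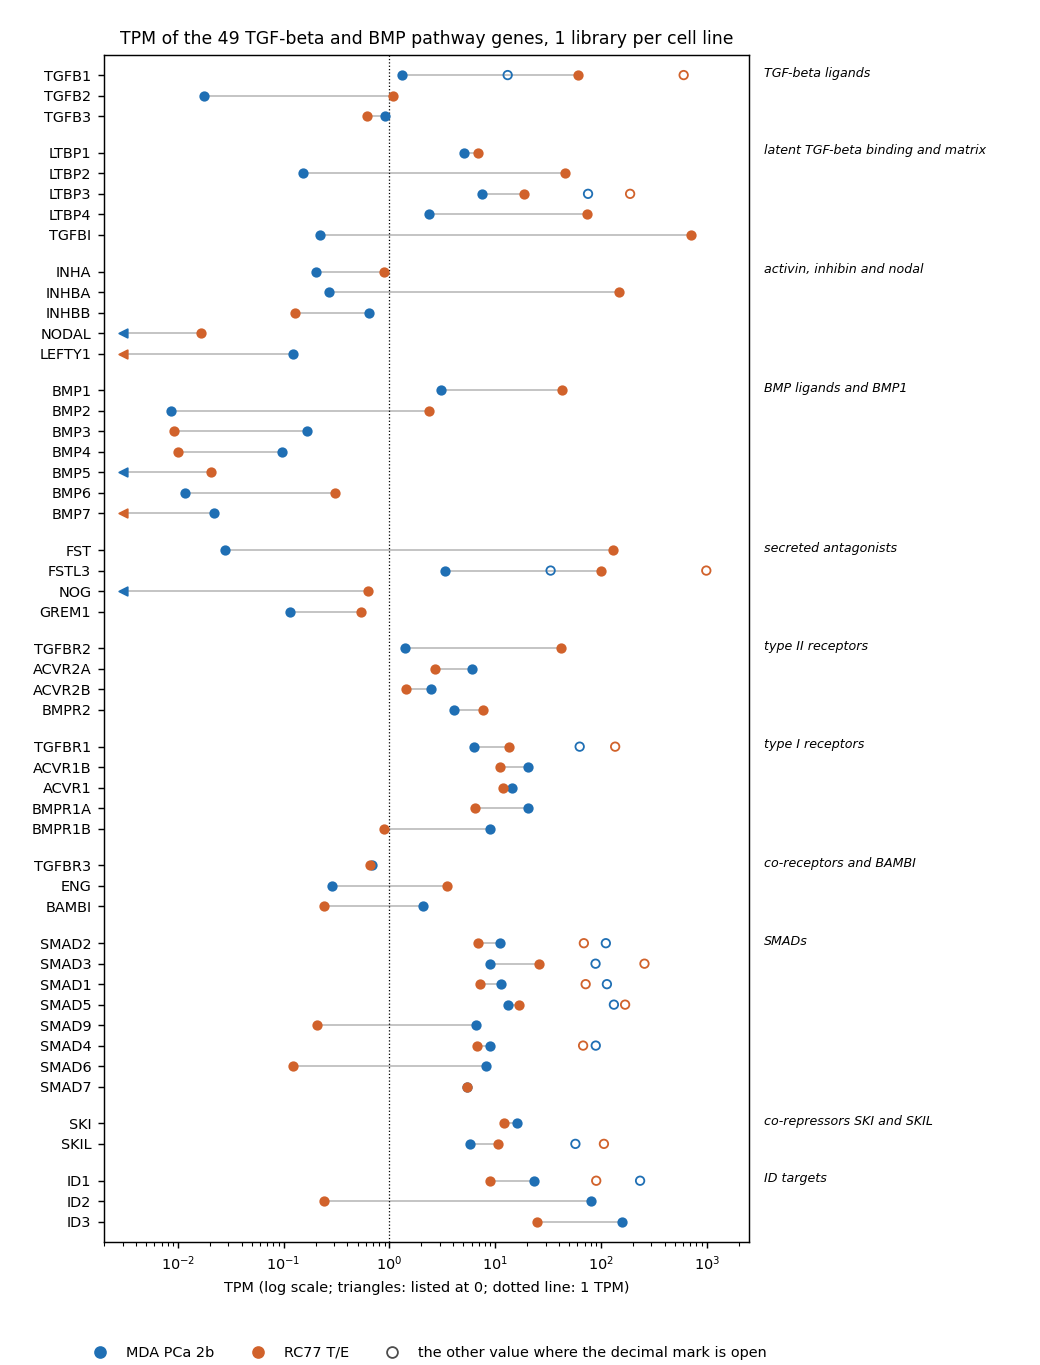
Level of the 49 members in MDA PCa 2b (blue) and RC77 T/E (orange), in TPM on a log axis, 1 line a gene, grouped by role. Filled points are the only or the lower reading of the decimal mark, open points the higher reading, triangles genes listed at 0, and the dotted line is 1 TPM. TGFBI, INHBA and FST are high in RC77 T/E with low points in MDA PCa 2b, and ID2, SMAD6 and SMAD9 show the opposite arrangement.

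To compare the lines gene by gene, the log2 ratio (RC77 T/E over MDA PCa 2b) was taken after adding a pseudocount of 1 TPM, which understates the ratio of low genes. A gene was called different at a ratio of at least 2-fold, provided its mean over both lines was at least 1 TPM. Of the 35 members that passed this filter, 14 were higher in RC77 T/E, 8 were higher in MDA PCa 2b and 13 were under 2-fold. Over all 11624 genes that passed, 19.4% were called toward RC77 T/E and 20.1% toward MDA PCa 2b. The median log2 ratio of the 35 members was 0.33, beside -0.15 over all genes that passed. Members expressed in 1 line alone can pass this filter only through the line in which they are higher, so the 24 members expressed in both lines were counted separately on the plain TPM ratio. Among these 24, 8 differed at least 2-fold toward RC77 T/E and 4 toward MDA PCa 2b, with 14.1% and 22.2% of 9767 genes as the respective background, and the median plain log2 ratio was 0.17, beside -0.26 over those genes. The 13 members expressed in neither line were TGFB3, INHA, INHBB, NODAL, LEFTY1, BMP3, BMP4, BMP5, BMP6, BMP7, NOG, GREM1 and TGFBR3.

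**Figure D2:**
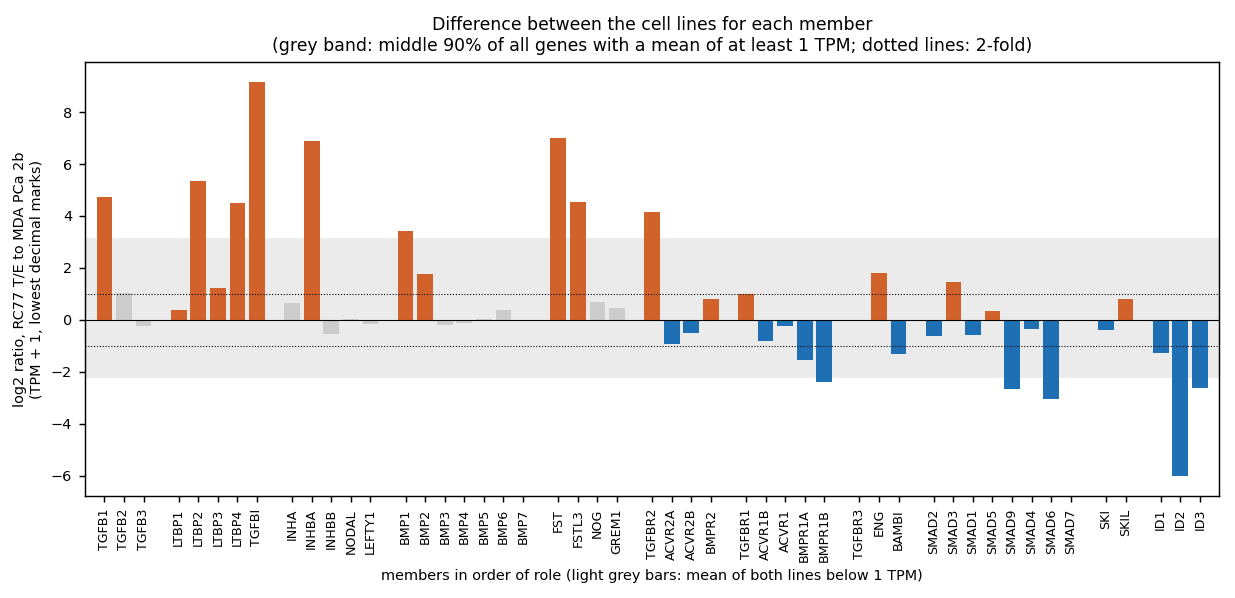
Log2 ratio, RC77 T/E over MDA PCa 2b (TPM plus 1), of each of the 49 members in order of role, orange or blue for the 35 whose mean reached 1 TPM and light grey for the rest, with the 2-fold limits dotted and the middle 90% of all genes, from -2.20 to 3.10, as a grey band. TGFBI at 9.18, followed by FST and by INHBA at 6.87, is the highest, and ID2 at -6.03, followed by SMAD6 at -3.04, the lowest.

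In RC77 T/E, TGF-beta itself was mainly represented by TGFB1, whose level was far higher there than in MDA PCa 2b. At the lower reading of its mark, TGFB1 was not far above TGFB3 in MDA PCa 2b. TGFB1 (chr19:41301587-41353922 in GRCh38) was at 1.31 or 13.1 TPM in MDA PCa 2b against 60.5 or 605.5 TPM in RC77 T/E, a 46.1-fold difference (log2 ratio 4.73). The TGFB1 locus overlaps HNRNPUL1, CCDC97 and TMEM91 on the opposite strand, and although the library kit kept the strand, whether the quantification used it is not given in the sources used here. TGFB2, the isoform best known from development, was at 0.0177 TPM in MDA PCa 2b but just past the expression limit in RC77 T/E, at 1.07 TPM, and its mean did not pass the filter. TGFB3, the remaining isoform, was below the limit in both lines, at 0.914 and 0.614 TPM.

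Of the 4 LTBP genes, a family named for the binding of latent TGF-beta, 3 were called toward RC77 T/E, beside 19.4% of all genes. LTBP2 was below 1 TPM in MDA PCa 2b and passed the filter only through RC77 T/E. Of the 3 LTBP genes expressed in both lines, 2 were past 2-fold toward RC77 T/E on the plain ratio, beside 14.1% of all such genes. LTBP2, a matrix protein of elastic fibres, was at 0.154 TPM in MDA PCa 2b against 45.8 TPM in RC77 T/E (log2 ratio 5.34). LTBP4, which binds latent TGF-beta 1 and also serves elastic fibre assembly, was at 2.37 and 74.3 TPM, a 31.3-fold difference. LTBP3 was at 7.55 or 75.5 TPM in MDA PCa 2b against 18.9 or 188.6 TPM in RC77 T/E, a 2.50-fold difference. LTBP1, the classical partner of the latent complex, differed little, at 5.05 and 6.85 TPM. TGFBI, a secreted cell adhesion protein first isolated as a gene induced by TGF-beta, had the largest log2 ratio of all members with the pseudocount, and lies at chr5:136028988-136063818. It was at 0.223 TPM in MDA PCa 2b against 707.0 TPM in RC77 T/E, a log2 ratio of 9.18, and at that level between 147 and 478 genes stood above it in RC77 T/E, depending on the readings of their marks.

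Among the activin, inhibin and nodal subunits, 1 of 5 was expressed, and only in RC77 T/E. INHBA (chr7:41667168-41705834), which encodes the subunit that forms activin A, was at 0.268 TPM in MDA PCa 2b against 147.3 TPM in RC77 T/E, a log2 ratio of 6.87. INHBA-AS1 overlaps it on the opposite strand. INHBB, the subunit of activin B, was at 0.635 and 0.129 TPM, and INHA, the alpha subunit that turns activin subunits into inhibins, was at 0.201 and 0.897 TPM. NODAL, an embryonic ligand, was listed at 0 in MDA PCa 2b and at 0.0165 TPM in RC77 T/E. LEFTY1, an antagonist of NODAL, was at 0.123 TPM in MDA PCa 2b but listed at 0 in RC77 T/E, and its value is uncertain because LEFTY2 is a near-identical copy and another annotated gene overlaps it on the same strand.

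The secreted antagonists of activin were high in the line in which INHBA was high. FST (chr5:53480626-53487134), which encodes follistatin, a soluble protein that binds activin and blocks it, was at 0.0277 TPM in MDA PCa 2b against 131.0 TPM in RC77 T/E, a 4723-fold difference on the plain ratio. On that measure, without the pseudocount, FST differed more than TGFBI, which was 3172-fold higher in RC77 T/E. FSTL3, a related activin-binding protein, was at 3.34 or 33.4 TPM and 99.1 or 990.9 TPM, a 29.7-fold difference. The ratio of INHBA to FST, as levels per length, was 1.12 in RC77 T/E. For MDA PCa 2b this ratio was 9.67, with both genes below 1 TPM. FSTL3 adds to the antagonist side of either line. Its level exceeded that of INHBA under both readings of the mark for MDA PCa 2b, but only under the higher reading for RC77 T/E. The BMP antagonists NOG, at 0 and 0.621 TPM, and GREM1, at 0.115 and 0.539 TPM, were below the expression limit in both lines.

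Genes of the BMP ligands were low in both lines. The summed level of the 6 ligand genes BMP2, BMP3, BMP4, BMP5, BMP6 and BMP7 was 0.303 TPM in MDA PCa 2b against 2.74 TPM in RC77 T/E. Most of the RC77 T/E sum came from BMP2, an osteogenic ligand, which was at 0.00851 TPM in MDA PCa 2b against 2.39 TPM in RC77 T/E (log2 ratio 1.75). The levels of the other BMP ligands were at most 0.308 TPM, that of BMP6 in RC77 T/E, and BMP3 and BMP4 were highest in MDA PCa 2b, at 0.166 and 0.0954 TPM. BMP1 is a procollagen protease rather than a ligand of this family, and it was at 3.09 TPM in MDA PCa 2b against 43.1 TPM in RC77 T/E, a 13.9-fold difference.

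**Figure D3:**
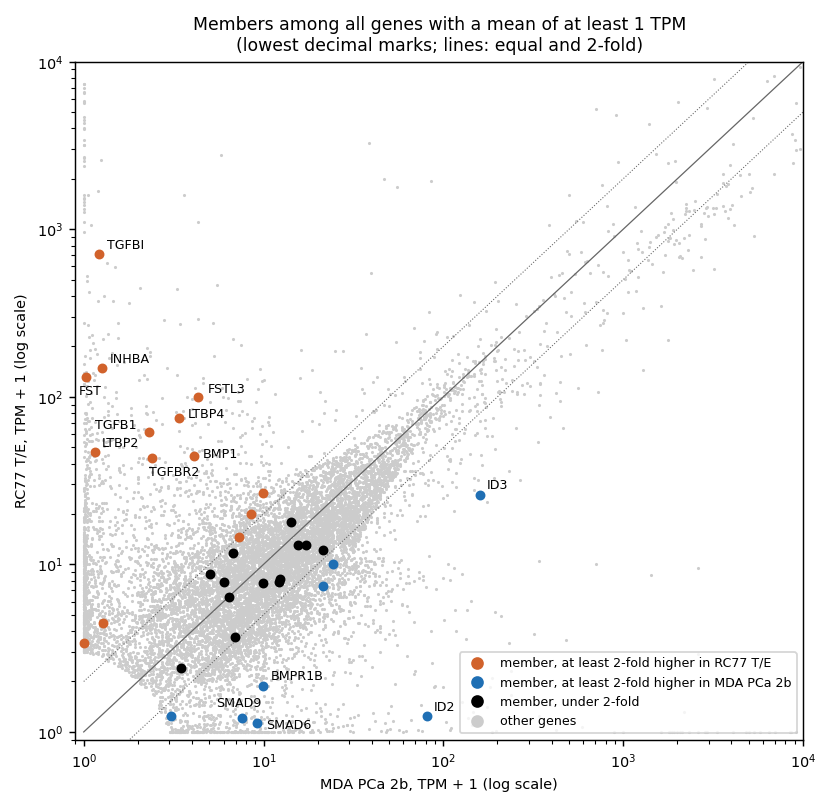
All 11624 genes whose mean reached 1 TPM (grey) and the 35 members among them (coloured by call), MDA PCa 2b on the x axis and RC77 T/E on the y axis, both TPM plus 1 on log axes, with lines for equal levels and for 2-fold. Genes whose decimal mark has several readings are drawn at the lowest, so the crowding of points below 100 TPM is partly set by that choice; TGFBI, INHBA and FST stand at the upper left, and ID2 at the lower right.

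Of the 9 type I and type II receptor genes among the members, MDA PCa 2b expressed 9 and RC77 T/E 8, and the largest difference among these 9 was in the type II receptor for TGF-beta. TGFBR2 (chr3:30606601-30694142), which binds TGF-beta and starts the signal, was at 1.41 TPM in MDA PCa 2b against 42.3 TPM in RC77 T/E, a 30.0-fold difference (log2 ratio 4.17). Its type I partner TGFBR1 was at 6.29 or 62.9 TPM and 13.6 or 136.2 TPM, a 2.16-fold difference that lay just past the limit (log2 ratio 1.00). The TGFBR2 to TGFBR1 ratio was thereby 13.9-fold higher in RC77 T/E. The type II receptor of the BMPs, BMPR2, was at 4.05 and 7.72 TPM, so that TGFBR2 stood at 0.347 times the level of BMPR2 in MDA PCa 2b and at 5.48 times its level in RC77 T/E.

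The activin receptors were somewhat higher in MDA PCa 2b, with none called. ACVR2A, a type II receptor for activins, was at 5.97 TPM in MDA PCa 2b against 2.68 TPM in RC77 T/E, a difference of 2.23-fold on the plain ratio and under 2-fold with the pseudocount (log2 ratio -0.92). ACVR2B, its paralog, was at 2.47 and 1.42 TPM. ACVR1B, the type I receptor of activin, was at 20.5 and 11.1 TPM, under 2-fold. ACVR1, a type I receptor that serves BMPs, differed less, at 14.5 and 12 TPM.

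Of the type I receptors named for the BMPs, both were higher in MDA PCa 2b. BMPR1A was at 20.4 TPM in MDA PCa 2b against 6.43 TPM in RC77 T/E, a 3.18-fold difference. Its paralog BMPR1B was at 8.98 and 0.886 TPM, a 10.1-fold difference (log2 ratio -2.40) that put it below the expression limit in RC77 T/E. BMPR1A stood above BMPR1B in both lines, by 2.28-fold in MDA PCa 2b and 7.25-fold in RC77 T/E. BAMBI, a membrane protein that resembles a type I receptor without its kinase and acts as a decoy, was at 2.06 and 0.241 TPM (log2 ratio -1.30). The co-receptor ENG, or endoglin, which is known mostly from endothelial cells, was at 0.286 TPM in MDA PCa 2b against 3.46 TPM in RC77 T/E (log2 ratio 1.80), while the endothelial markers PECAM1, VWF, CDH5, KDR and TEK were each below 1 TPM in both lines. TGFBR3, the co-receptor betaglycan, was at 0.689 and 0.655 TPM.

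Of the 8 SMAD genes, 1 was called toward RC77 T/E, 2 toward MDA PCa 2b and 5 neither way, beside 19.4% and 20.1% of all genes called toward the respective line. The 2, SMAD6 and SMAD9, were below 1 TPM in RC77 T/E and passed the filter only through MDA PCa 2b. Of the 6 SMAD genes expressed in both lines, 1 was past 2-fold toward RC77 T/E on the plain ratio and 0 toward MDA PCa 2b. The background was 14.1% and 22.2% of all such genes. SMAD4, the partner shared by both branches, was at 8.93 or 89.3 TPM in MDA PCa 2b against 6.78 or 67.8 TPM in RC77 T/E, and an annotated gene overlaps it on the same strand. In the TGF-beta and activin branch, SMAD2 was at 11.1 or 111.2 TPM and 6.89 or 68.9 TPM, a 1.61-fold difference toward MDA PCa 2b. SMAD3, its closest relative, went the other way, at 8.89 or 88.9 TPM in MDA PCa 2b against 25.8 or 257.9 TPM in RC77 T/E, a 2.90-fold difference. The SMAD3 to SMAD2 ratio was 4.68-fold higher in RC77 T/E. In the BMP branch, SMAD1 was at 11.4 or 113.8 TPM and 7.17 or 71.7 TPM, and SMAD5 at 13.3 or 132.6 TPM and 16.9 or 169.2 TPM, both under 2-fold. SMAD9, the third receptor-regulated SMAD of that branch, was at 6.56 TPM in MDA PCa 2b against 0.206 TPM in RC77 T/E (log2 ratio -2.65).

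The inhibitory SMADs differed from each other. SMAD7, which blocks TGF-beta and BMP receptors alike, was at 5.45 TPM in MDA PCa 2b against 5.37 TPM in RC77 T/E. SMAD6, which acts mainly on the BMP branch and is itself a known BMP target, was at 8.22 and 0.123 TPM, a 66.9-fold difference on the plain ratio and a log2 ratio of -3.04 with the pseudocount. SMAD6 was thus 1.51 times SMAD7 in MDA PCa 2b and 0.0229 times SMAD7 in RC77 T/E. The opposite differences of SMAD6 and SMAD3 were seen in genes that are neighbours on chromosome 15. SMAD6 spans chr15:66702236-66782849 and SMAD3 chr15:67063763-67195173 in GRCh38, on the same strand, 280.9 kb apart. Another pair of neighbouring members, TGFBI and SMAD5 on chromosome 5, lies 69.0 kb apart with log2 ratios of 9.18 and 0.33. LTBP4 and TGFB1 on chromosome 19, 671.8 kb apart, had like log2 ratios of 4.48 and 4.73, and SMAD2 and SMAD7 on chromosome 18, 988.7 kb apart, had -0.62 and -0.018.

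SKI and SKIL, co-repressors that bind SMADs, were both under 2-fold. SKI was at 16.2 TPM in MDA PCa 2b against 12.1 TPM in RC77 T/E, and SKIL, which TGF-beta signalling is known to degrade and then induce, was at 5.73 or 57.3 TPM and 10.7 or 106.7 TPM.

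The 3 ID genes, inhibitors of basic helix-loop-helix factors and common targets of BMP signalling, were all called toward MDA PCa 2b, beside 20.1% of all genes. ID2 was below 1 TPM in RC77 T/E and passed the filter only through MDA PCa 2b. The 2 ID genes expressed in both lines were also past 2-fold on the plain ratio, beside 22.2% of all such genes. ID2 (chr2:8678845-8684461) was at 80.2 TPM in MDA PCa 2b against 0.238 TPM in RC77 T/E, a log2 ratio of -6.03 and the lowest of all members. ID3 was at 158.6 and 25.0 TPM, a 6.35-fold difference, and was the highest member in MDA PCa 2b among those with a fixed mark. ID1 was at 23.4 or 234.4 TPM and 9.02 or 90.2 TPM, a 2.60-fold difference. ID3 exceeded ID2 by 1.98-fold in MDA PCa 2b and by 105-fold in RC77 T/E. ID2-AS1 overlaps ID2 on the opposite strand, while no annotated gene overlaps ID1 or ID3.

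Sequences upstream of SMAD6 and ID1 are shown because both genes are known BMP targets that were higher in MDA PCa 2b, and GTCTAGAC, a palindromic SMAD-binding element, is in the first of these windows and not in the second. These are the 250 bases before the annotated start on the plus strand in GRCh38.p14, from RefSeq, at chr15:66701986-66702235 for SMAD6 and chr20:31605039-31605288 for ID1. Of these bases, 8 for SMAD6 and 6 for ID1 lie in an annotated exon of the same gene. The capitals mark GTCTAGAC, which is its own reverse complement and begins 12 bases before the SMAD6 start.
SMAD6: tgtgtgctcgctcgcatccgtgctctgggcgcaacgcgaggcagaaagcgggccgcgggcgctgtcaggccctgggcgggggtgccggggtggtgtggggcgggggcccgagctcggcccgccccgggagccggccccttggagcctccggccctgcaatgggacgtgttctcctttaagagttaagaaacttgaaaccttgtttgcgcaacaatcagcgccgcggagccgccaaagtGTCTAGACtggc
ID1: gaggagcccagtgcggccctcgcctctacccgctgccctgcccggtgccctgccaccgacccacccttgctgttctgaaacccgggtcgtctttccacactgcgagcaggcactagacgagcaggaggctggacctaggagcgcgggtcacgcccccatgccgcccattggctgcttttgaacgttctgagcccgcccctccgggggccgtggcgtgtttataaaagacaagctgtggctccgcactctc
Among the 42 members with an upstream sequence in that table, SMAD6 was the only one with GTCTAGAC, which was present in 0.182% of 35116 promoters. The letters GGCGCC, a GC-rich element described for BMP-regulated SMADs, were found on either strand in 14 of the 42 members and 16.4% of all promoters, and CAGAC, the shorter SMAD-binding letters, in 15 of 42 members and 38% of all promoters. Neither was found in the windows of SMAD6 and ID1. Bases farther upstream were not searched, so an absence holds for the window alone. A match of letters is a description of the window and not a site at which binding was measured.

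Other genes of the pathway, outside the 49 members, were examined as 3 lists. Among further ligands, antagonists and modulators, 24 of 51 genes in the table passed the filter, of which 3 were called toward RC77 T/E and 6 toward MDA PCa 2b, beside 19.4% and 20.1% of all genes, and their median log2 ratio was -0.42, beside -0.15 over all genes. GDF15, a stress-induced cytokine distantly related to TGF-beta, was at 2599 TPM in MDA PCa 2b against 1.93 TPM in RC77 T/E. TMEFF2, a transmembrane protein with follistatin domains that is abundant in prostate, was at 15.2 and 0.00993 TPM. GDF11, a ligand of the activin receptors, was at 43.7 or 437.2 TPM and 2.92 or 29.2 TPM. ID4, the remaining ID gene, was at 8.85 to 884.9 TPM in MDA PCa 2b, depending on the mark, but listed at 0 in RC77 T/E. Most of the 6, with TMEFF2 and ID4 among them, were below 1 TPM in RC77 T/E and passed only through MDA PCa 2b. On the other side, TGFB1I1, a focal adhesion protein also known as HIC-5, was at 0.169 and 21.8 TPM and passed only through RC77 T/E. FSTL1, a secreted glycoprotein related to follistatin, was at 17.5 and 70.6 TPM, and TGIF1, a SMAD co-repressor, was 3.67-fold higher in RC77 T/E.

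Of 12 genes that act in the release of latent TGF-beta, 7 passed the filter, and 4 of these were called toward RC77 T/E and 2 toward MDA PCa 2b, beside 19.4% and 20.1% of all genes, with a median log2 ratio of 2.01, beside -0.15 over all genes. Of the 4, FBN2, ITGB6 and ITGB8 were below 1 TPM in MDA PCa 2b and passed only through RC77 T/E. ITGB6, the beta subunit of the epithelial integrin that activates latent TGF-beta 1, was at 0.311 TPM in MDA PCa 2b against 114.3 TPM in RC77 T/E. ITGB8, the subunit of another activating integrin, was at 0.0894 and 3.39 TPM. FBN2, a microfibril protein that anchors latent complexes, was at 0.0238 and 21.1 TPM, and THBS1, thrombospondin, an activator of latent TGF-beta, was 11.1-fold higher in RC77 T/E. The processing proteases went the other way. PCSK5 was at 3.70 and 0.246 TPM and passed only through MDA PCa 2b, and FURIN was 2.62-fold higher in MDA PCa 2b.

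Of genes widely described as raised by TGF-beta, those that passed the filter were mostly higher in RC77 T/E. Of 29 in the table, 24 passed, of which 17 were called toward RC77 T/E and 3 toward MDA PCa 2b, beside the same 19.4% and 20.1% of all genes. Their median log2 ratio was 2.92, beside -0.15 over all genes. Most of the 17, with VIM, MMP9 and PTHLH among them, were below 1 TPM in MDA PCa 2b and passed only through RC77 T/E. THBS1 belongs to this list too, and COL1A1 and COL1A2 are also among the fibroblast markers, whose summed level was 4.15 TPM for MDA PCa 2b and 12.2 TPM for RC77 T/E. VIM, the intermediate filament of mesenchymal and many cultured cells, was at 0.30 TPM in MDA PCa 2b against 400.1 TPM in RC77 T/E. MMP9, a gelatinase, was at 0.0510 and 266.0 TPM, and PTHLH, a parathyroid hormone-like factor, at 0.0206 and 174.4 TPM. The exceptions were TPM1, a tropomyosin, at 6.49-fold, PMEPA1, an inhibitor of TGF-beta signalling induced by it, at 3.03-fold, and HMOX1, haem oxygenase, at 4.87 and 0.841 TPM, all higher in MDA PCa 2b. HMOX1 was below 1 TPM in RC77 T/E and passed only through MDA PCa 2b. Restricted to genes expressed in both lines, 5 of 11 genes in this list were past 2-fold toward RC77 T/E and 2 toward MDA PCa 2b, against 14.1% and 22.2% of all such genes. The corresponding counts were 3 and 3 of 18 modulators and 2 and 1 of 3 activation genes. Many of these genes respond to other signals too, and no measurement of TGF-beta signalling itself was made.

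**Figure D4:**
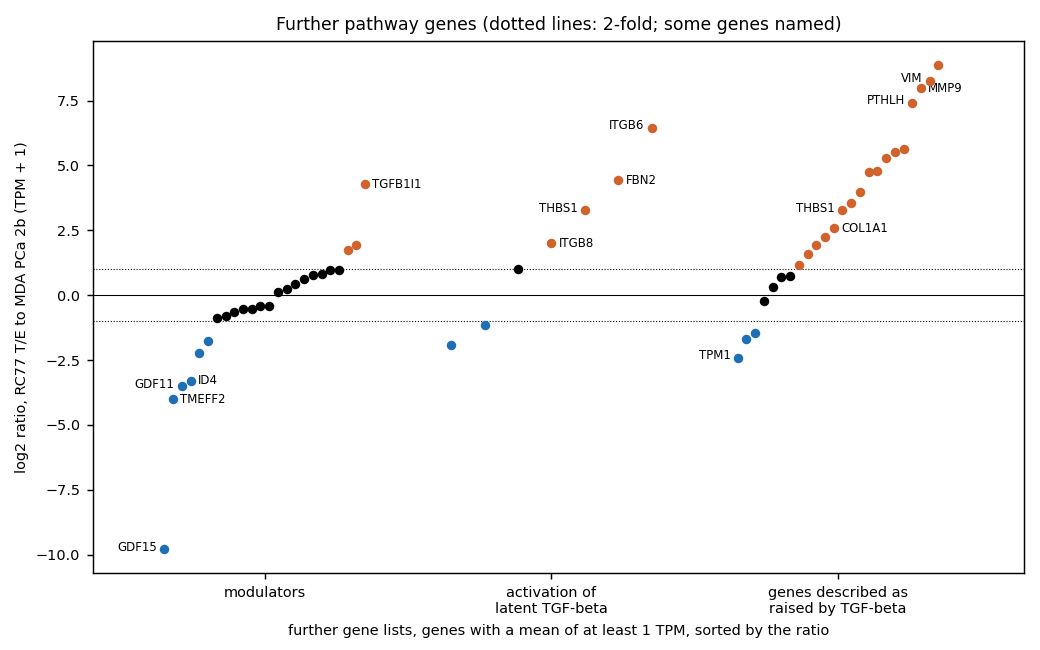
Log2 ratio, RC77 T/E over MDA PCa 2b (TPM plus 1), of the further pathway genes whose mean reached 1 TPM, 1 point a gene, sorted within each of the 3 lists; orange points are past 2-fold toward RC77 T/E, blue toward MDA PCa 2b, black under 2-fold. In the list of genes described as raised by TGF-beta 17 of 24 points lie above the upper dotted line and 3 below the lower.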

How the data were processed

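For each of the 2 untreated lines, total RNA was made into 1 directional paired-end library. Per the labels, the authors used CASAVA, FastQC 0.11.9, Trimmomatic 0.38, Salmon 1.2.0 and GRCh38, and they deposited TPM per locus with the mean and SE over both lines, and the annotation is not given in the sources used here. TPM keep no read counts, so the depth behind each value is unknown and no interval can be given. The deposited TPM values had lost many decimal marks. Each mark was restored to every position that gives the deposited mean and SE: 16283 of 22791 rows had 1 position, 6507 had 2 or 3, and 1 had none and was left out. Where several remained, the position was taken from a supplementary table of the study if it held the row, using its positions but not its digits. Otherwise the lowest was used in sums and ratios. The lowest was right in 525 of 683 rows that could be checked (76.9%). Those rows were the ones held by the supplementary table, so the share among the other rows is unknown. Where the deposited table left 1 position, its TPM equalled the supplementary TPM in 1310 of 1315 rows.

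Loci of a symbol were summed, giving 21381 genes. Log2 ratios used a pseudocount of 1 TPM, and a call a mean of at least 1 TPM and 2-fold. A plain ratio over genes at 1 TPM or more in both lines was the second measure. No test was run, as each line has 1 library. Every member is named, and of each further list up to 4 genes with the largest ratio in each direction, except that 1 gene of these and 1 marker are not reported here by name. The members, lists and rules were chosen with earlier results of these data known, and SMAD6 was added to the promoters to be shown after its values were seen. Windows of ID2, ID3 and SMAD7 lie largely in exons of longer transcripts and are not shown. Gene positions came from the deposited loci, and all 49 members lay within 100 kb of the GENCODE 29 gene of that name. Alternatives were a pseudocount of 0.1 TPM, limits of 0.5 and 5 TPM, centring, upper quartile scaling, no filter, the highest decimal marks and the largest locus of each gene. Python 3.11.15 and numpy 2.4.6 were used, and the restoration and the calls were tested on simulated data.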

Additional observations from a re-analysis of the deposited data

How the results depend on the processing

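On the plain ratio over genes at 1 TPM or more in both lines, the members higher in RC77 T/E were 8 rather than 14 and those higher in MDA PCa 2b 4 rather than 8, a setting that both leaves out the pseudocount and tests fewer genes. ACVR2A is among these 4 on the plain ratio alone. All genes higher in RC77 T/E were then 1377 rather than 2258, and the further pathway genes higher in RC77 T/E 9 rather than 23, with 6 rather than 11 in MDA PCa 2b. Under the other alternatives (a pseudocount of 0.1 TPM, centring on the median, upper quartile scaling, no filter, the highest decimal marks and the largest locus), the counts of called members were 14 to 15 toward RC77 T/E and 8 to 9 toward MDA PCa 2b, and no called member changed direction. SMAD7, near equal in both lines and not called, went from -0.018 to 0.14 on centring and 0.11 on upper quartile scaling. The median of all genes was -0.15 on the log2 scale, and centring on it changed the call of 0 members, although over all genes it moved the counts to 2545 toward RC77 T/E and 1907 toward MDA PCa 2b. With the pseudocount of 0.1 TPM, 13 of 35 members moved by over 1.5 times, each of them under 1.5 TPM in 1 line at the lower reading. With the limit for expression at 0.5 or 5 TPM, the members expressed were 32 or 21 for MDA PCa 2b, against 37 or 26 for RC77 T/E. No paired analysis was possible because each line has 1 library, and leaving out a library was not possible for the same reason. Without read counts, a value near 0 cannot be told from a failure to detect the transcript.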
